A study of Mus musculus with 12 samples.

Results

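Small nucleolar RNA (snoRNA) genes were read from the array in 75 rows of 33793, 47 of box C/D genes (Snord) and 28 of box H/ACA genes (Snora). A row is a transcript cluster, a group of probes summarised to 1 value per mouse, and a row was taken where its single annotated gene symbol is Snord or Snora with a number. No measured value entered the choice. The 75 rows carry 73 symbols, because Snora19 and Snora33 each have a pair of rows. The 2 Snora19 rows hold identical values, so that 74 rows are distinct, whereas those of Snora33 differ, with mean log2 signals of 5.98 and 3.51. A further 43 rows name a snoRNA together with other genes and were left out.

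snoRNAs are short RNAs of the nucleolus that pair with ribosomal RNA and direct its chemical modification. Box C/D snoRNAs guide ribose methylation by fibrillarin, and box H/ACA snoRNAs guide the conversion of uridine to pseudouridine by dyskerin, while a few members of each class are needed to cut the ribosomal RNA precursor instead. In mammals most are released from introns of a host gene after splicing, and many hosts are genes of ribosomal proteins or of translation. Dividing cells such as those of the intestinal crypt make many ribosomes.

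The series compares crypts of Zfp148gt/+ mice, which carry 1 gt allele of the transcription factor gene Zfp148, with crypts of Zfp148+/+ controls, to ask whether loss of 1 copy alters expression where intestinal tumours begin. Mice of both groups carry the Apc Min/+ mutation, which causes intestinal adenomas, were 12 weeks old, untreated and of a mixed strain background. Crypt-enriched tissue was cut by laser microdissection from the proximal small intestine, and total RNA of 6 mice per genotype was hybridised to 1 array per mouse. The methods speak of littermate controls without saying which mice are littermates, so mice were treated as unpaired.

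Values are log2 signals normalized by robust multi-array averaging (RMA). They do not count molecules. Since probes differ in affinity, the signal of one row against another is given as a position on the array and not as an amount of RNA. Arrays correlated with each other at 0.963 to 0.983 over all rows. Zfp148 itself lay between 5.01 and 5.95 in Zfp148gt/+ mice and between 6.06 and 6.88 in controls. Of the tissue markers, all 4 of crypt stem cells and all 4 of Paneth cells were above the reference described next, and so were the 4 of villus enterocytes, the 3 of fibroblasts and both B and plasma cell genes. In bulk samples such as these, fewer cells of a type and less RNA per cell cannot be told apart.

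The snoRNA rows as a group did not lie high on these arrays, although a few were bright. Their median log2 signal over 12 mice was 2.88, against 3.10 for the 23446 other rows with 1 symbol and 1.89 for 511 microRNA rows. As a reference for rows with little or no RNA, the 95th percentile of the odorant and vomeronasal receptor rows was taken, which was 2.74. By their means 40 snoRNA rows (53.3%) were above it, compared with 57.1% of the other named rows and 19.4% of microRNA rows. Only 22 snoRNA rows were above it in every mouse and 5 in none, which leaves 48 (64.0%) that crossed the reference in some mice and not in others. Among other named rows that share was 22.4%, and among microRNA rows 24.7%.

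The brightest rows were few. Snord13, known as U13 and shown in human cells to guide acetylation of the small-subunit ribosomal RNA, had a log2 signal of 10.08 ± 0.58 (SD within genotype, 12 mice), with a lowest value of 9.24, a median of 10.17 and a highest value of 10.95. Snord104 followed at 9.27 (8.74 to 9.80) and Snora44 at 8.83 (7.89 to 10.00). These 3 rows stood apart from the other 72, whose means did not pass 6.41. That value belongs to Snord23, from an intron of the nucleolar protein gene Nop53. The next box C/D rows were Snord17 at 5.83 and Snord118 at 5.71. Snord118 is U8, a box C/D RNA with its own promoter that is needed to process the large-subunit RNA. Among box H/ACA rows, the brighter Snora33 row (5.98), Snora78 (5.81), Snora23 (5.45) and Snora7a (5.37) came after Snora44. At the other end lay Snord90 at 1.48 and Snora15 at 1.68.

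Textbook members were spread over the scale below the brightest rows. Snora73a and Snora73b, the U17 RNAs, whose yeast counterpart is needed for the first cuts that free the small-subunit RNA, had means of 3.31 and 4.26. Snord22 and Snord47, from the non-coding hosts Snhg1 and Gas5, were at 3.67 and 3.48, and Snord35a, from the ribosomal protein gene Rpl13a, was at 2.98. Snora73b was above the reference in all 12 mice, Snord22 in 11, Snora73a and Snord47 in 10 each and Snord35a in 7. Snord61, Snord70 and Snord72, which are used as reference RNAs in microRNA assays, had means of 2.34, 1.65 and 1.70. Snora35 lies inside Htr2c, a serotonin receptor gene of the brain, and was below the reference in all 12 mice (1.73 to 2.48), as were Snord90, Snord70, Snora15 and Snord15a.

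Between these ends lay a middle group that every mouse showed. Above the reference in all 12 mice, beside the rows named so far, were the box C/D rows Snord49b (mean 5.53), Snord83b (5.23), Snord16a (5.20), Snord8 (5.03) and Snord11 (4.33), and the box H/ACA rows Snora21 (5.36), Snora28 (4.58), Snora68 (4.37), Snora61 (4.06) and Snora47 (3.97), together with Snord55 at 3.37. Snord83b comes from the ribosomal protein gene Rpl3, Snord16a from Rpl4 and Snora28 from the translation factor gene Eif5. A mean alone could mislead for the rows that crossed the reference. Snora31, at a mean of 4.03, was between 3.14 and 6.94 in 9 mice and between 1.60 and 2.47 in the other 3, Zfp148gt/+ mice 892, 893 and 897. Snord87, at a mean of 2.76, was above 3.5 in 4 mice (controls 888 and 899 and Zfp148gt/+ mice 783 and 892, 3.53 to 5.42) and at 2.42 or below in the other 8. Snord73b was at 4.61 in control 885 and 4.87 in Zfp148gt/+ mouse 783, and at 2.03 or below in the other 10 mice.

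**Figure D1:**
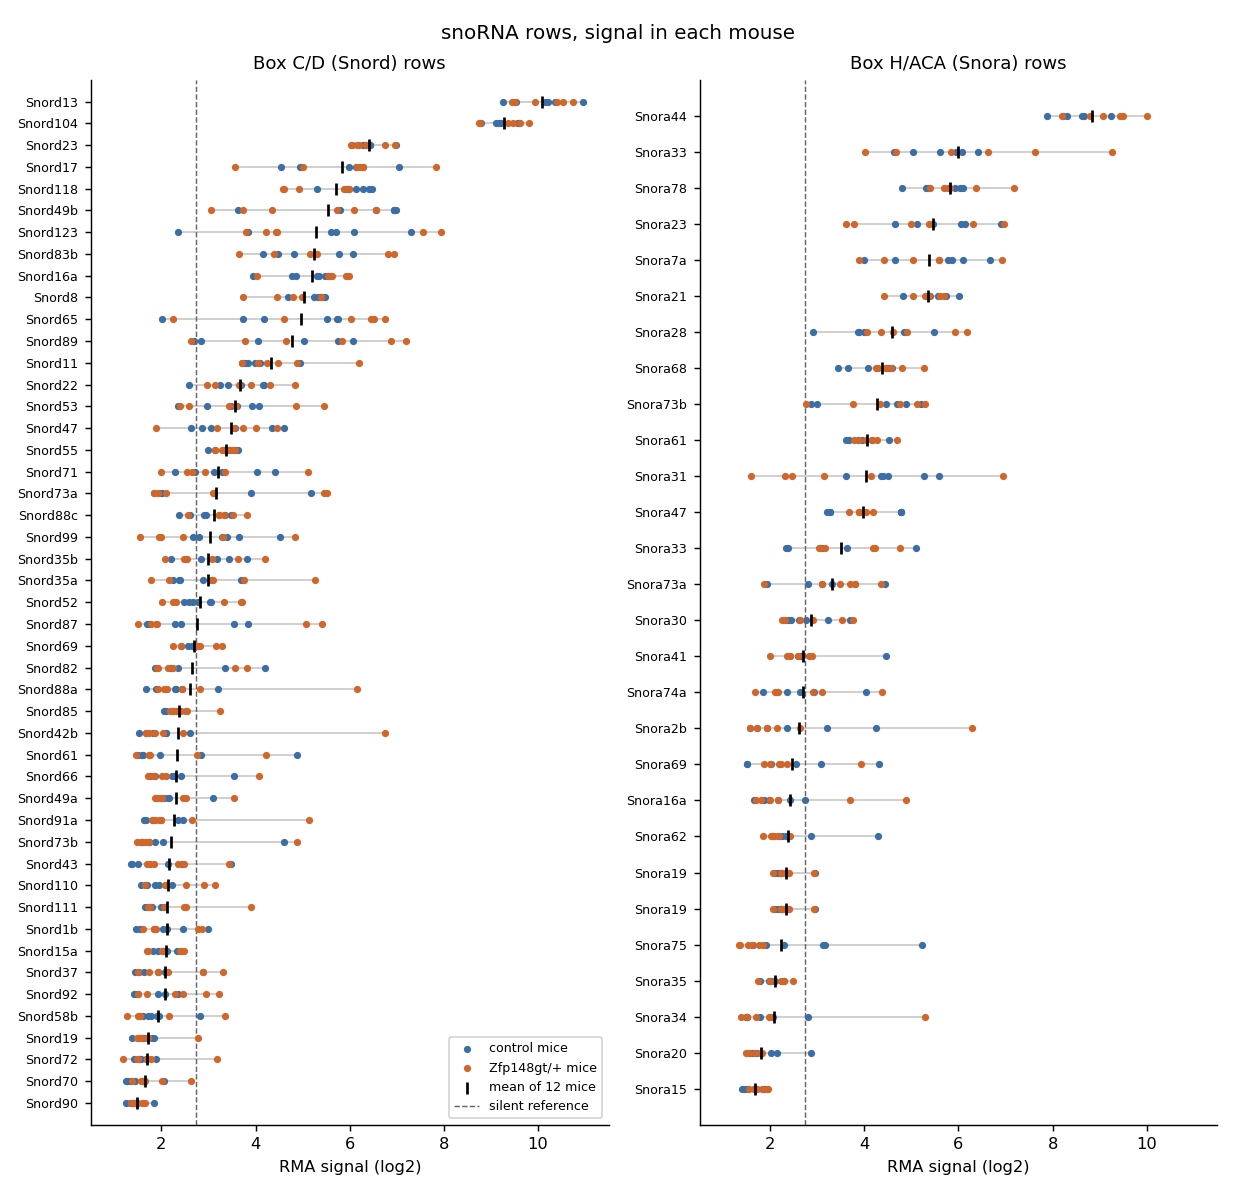
Log2 signal of each snoRNA row in each of 12 mice, box C/D rows on the left and box H/ACA rows on the right, ordered by mean. Points are mice coloured by genotype, black ticks are means and the dashed line is the silent reference of 2.74. Snord13, Snord104 and Snora44 stand apart at the top, and many rows below cross the reference in some mice only.

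The snoRNA rows varied more between mice of the same genotype than most other named rows did. The median SD within genotype was 0.66 on the log2 scale for snoRNA rows and 0.25 for other named rows, a ratio of 2.64. The snoRNA median was above 96.8% of the other rows. With 1 array per mouse, differences between animals and those from dissection, amplification or hybridisation cannot be told apart. The spread exceeded 0.5 in 55 of 75 snoRNA rows (73.3%) against 8.40% of other rows. Highest and lowest mouse differed by more than 2 log2 units in 46 snoRNA rows (61.3%) and in 5.23% of other rows. Other short RNAs were mixed in this respect. MicroRNA rows had a median SD of 0.21. The 6 rows of Scarna genes, the guides of Cajal bodies, had 0.59, and 66.7% of them exceeded 0.5, near the snoRNA share. The 43 shared rows that name a snoRNA, 16 of them with identical values, had a median SD of 0.28, and 37.2% exceeded 0.5.

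The same held at matched signal levels. Other rows were grouped into 7 ranges of mean signal, and each snoRNA row was set beside those of its own range. In every range the snoRNA median was the larger, by ratios of 1.73 above a signal of 6 to 3.55 between 2.5 and 3. Of 75 snoRNA rows, 71 exceeded the median of the other rows in their range and 58 (77.3%) exceeded their 90th percentile. The microRNA rows did so in 90 of 511 cases (17.6%). All these counts are descriptions, since rows of an array share the mice and are not replicates. RNA was purified on columns of the RNeasy type, and the recovery of short RNAs was not measured here.

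**Figure D2:**
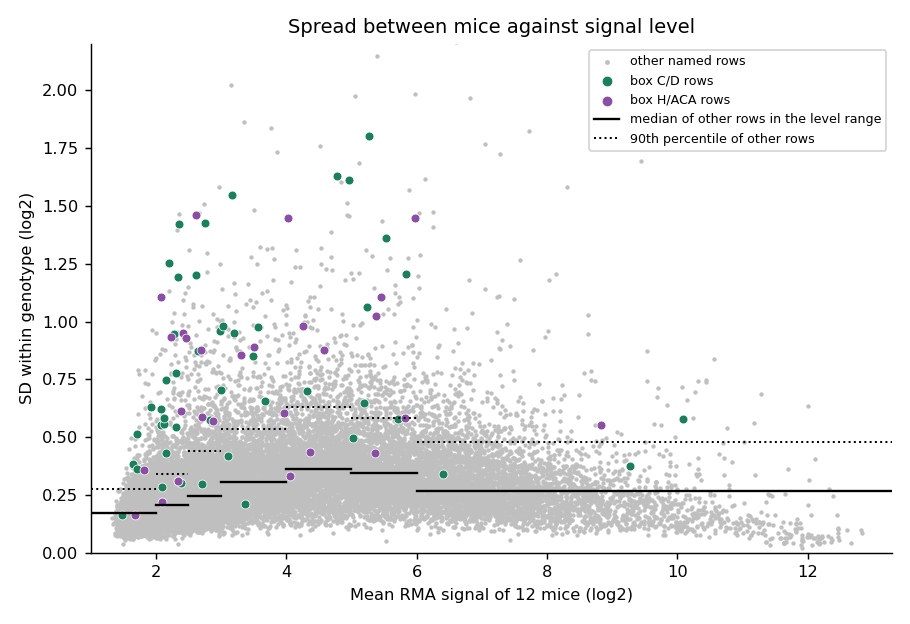
SD within genotype (log2) of each row against its mean log2 signal over 12 mice, with box C/D rows in green, box H/ACA rows in purple and other named rows in grey. Solid and dotted lines are the median and 90th percentile of other rows in 7 signal ranges, and 10 other rows lie above the axis limit of 2.2. Of the 75 snoRNA rows, 58 lie above the dotted lines.

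The most variable row was Snord123, whose gene lies inside the non-coding host Snhg18. Its signal ran from 2.35 to 7.94, a 48.2-fold range, with values of 5.61, 7.30, 5.71, 2.35, 3.83 and 6.08 in controls 782, 885, 888, 889, 895 and 899 and 7.94, 4.43, 7.55, 3.79, 4.23 and 4.45 in Zfp148gt/+ mice 783, 891, 892, 893, 897 and 911. High and low mice occurred in both genotypes. Snord65 (2.02 to 6.75, median 5.62) and Snord89 (2.64 to 7.20, median 4.84) also spanned much of the scale. Snord65 was low in 2 mice, control 889 at 2.02 and Zfp148gt/+ mouse 893 at 2.25, and Snord89 was below 3 in controls 885 and 889 and mouse 893. Snord73a, from the ribosomal protein gene Rps3a1, was above 5 in 3 mice, control 889 and Zfp148gt/+ mice 891 and 897, and at 3.89 or below in the other 9. Bright rows also varied, as in the brighter Snora33 row, which ran from 4.01 to 9.26.

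Steady rows existed in both classes. The smallest spread of a row above the reference in every mouse was that of the box C/D row Snord55, at 0.21 around a mean of 3.37. Snora61 (0.33), Snord23 (0.34) and Snord104 (0.38) were also steady. Snord90 (0.16), Snora15 (0.17) and Snora35 (0.22) were narrow too, but at levels at which no mouse passed the reference.

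In 6 rows 1 mouse stood more than 2 log2 units above all others (8% of snoRNA rows, against 37 other named rows, 0.158%). In 4 of these that mouse was Zfp148gt/+ mouse 892. The array of this mouse also stood apart over other named rows, of which 12.1% were highest there (5.31% to 10.8% in each other mouse) and 10.7% lowest, and it had the smallest interquartile range of the 12 arrays (2.69). The part of the array in these values was not tested. Snord42b, inside the ribosomal protein gene Rpl23a, read 6.74 in mouse 892 and at most 2.60 in the other 11 mice. Snord88a read 6.16 there and at most 3.19 elsewhere, Snord91a 5.13 and 2.64, and Snora2b 6.29 and 4.24. In the remaining pair the high mouse was another one, Zfp148gt/+ mouse 893 for Snora34 (5.29, next 2.80) and control 888 for Snora75 (5.23, next 3.16). Snord42b, Snord88a, Snord91a and Snora34 were picked out after their values were seen. No snoRNA row had 1 mouse as far below all others.

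Box C/D and box H/ACA rows differed little in level beside the scatter between mice, and the direction in spread was not stable. The median signal was 2.82 for box C/D and 3.09 for box H/ACA rows, a difference of −0.27. Computed in each mouse, the difference between the class medians ran from −1.26 to 0.38, and box H/ACA rows had the higher median in 10 of 12 mice, control 899 and Zfp148gt/+ mouse 783 being the exceptions. Adding the 43 shared rows moved the difference to −1.28. Of these, 16 rows of the imprinted Snord116 cluster hold identical values, and with identical rows counted once the difference was −1.15. Median spread was 0.66 for box C/D and 0.73 for box H/ACA rows. Their interquartile ranges, 0.50 to 1.02 and 0.43 to 0.96, covered almost the same span, and the difference between the medians, −0.077, turned positive without control 888 (0.073) or 895, or without Zfp148gt/+ mouse 783, 893 or 911. Each class had 11 rows above the reference in every mouse, of 47 and of 28. The share of rows above the 90th percentile of their signal range was 78.7% for box C/D and 75% for box H/ACA.

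snoRNA rows varied more than rows annotated to the genes around them. By the RefSeq annotation of GRCm38.p6, 72 of the 75 snoRNA genes lie inside another gene, and 3 do not (Snord13, Snord118 and Snord89). For 57 snoRNA rows the only surrounding gene had a row of its own, which gave 41 hosts, 34 protein-coding and 7 non-coding. Where a host had several rows, such as Rps12 with 8, the row of highest mean was used, a choice that favours bright host rows. Rows were matched to a host by gene ID, and their place on the genome was not checked. Some may therefore not probe the locus that holds the snoRNA. Host rows had a median signal of 7.84 and 39 of 41 were above the silent reference, whereas the snoRNA rows of these pairs had a median of 2.69. The snoRNA row had the larger spread in 53 of 57 pairs, with medians of 0.70 for snoRNAs and 0.22 for hosts and a median ratio of 2.65. Snord90, Snora15, Snord69 and Snora61 were the 4 with the smaller one.

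**Figure D3:**
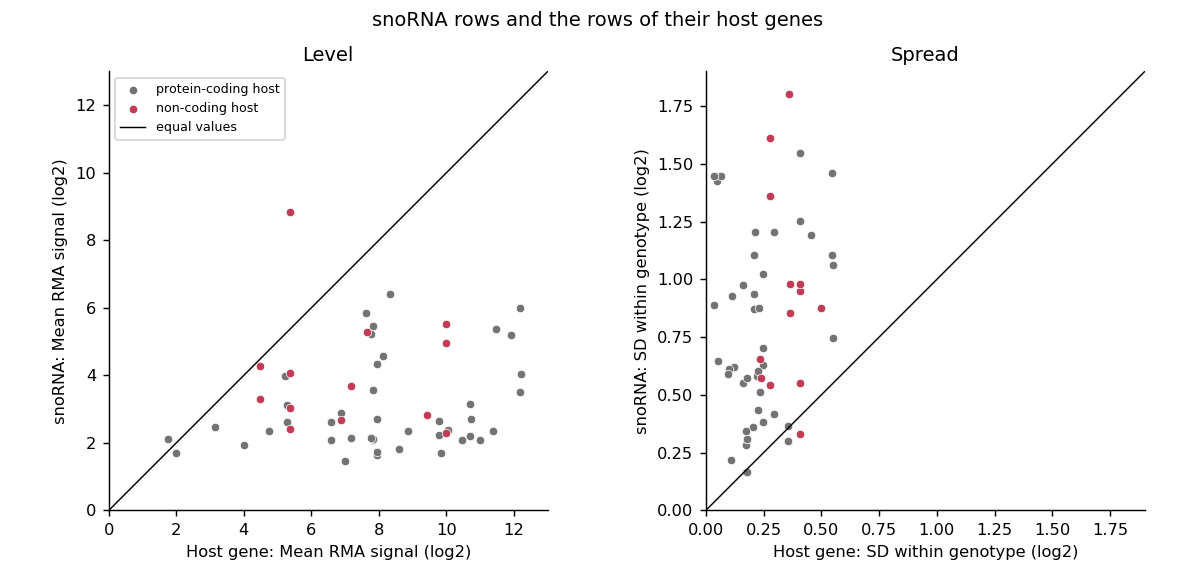
Mean log2 signal (left) and SD within genotype (right) of 57 snoRNA rows against a row annotated to the gene that surrounds each. Protein-coding hosts are in grey and non-coding hosts in red. The line marks equal values. In 53 pairs the snoRNA had the larger spread, while most hosts read brighter than their snoRNA.

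Some of these hosts lay near the top of the scale, which ends at 13.24. In the 42 pairs whose host read below 10, the snoRNA row had the larger spread in 38, with medians of 0.64 for snoRNAs and 0.24 for hosts. The ribosomal protein gene Rps12 read 12.18 with an SD of 0.04, and its Snora33 rows had SDs of 1.45 and 0.89. Tpt1, a translationally controlled tumour protein gene, had an SD of 0.07 at 12.21 in the brighter of its 2 rows. Its Snora31 ran from 1.60 to 6.94. Ncl, which encodes the nucleolar protein nucleolin, read 9.78 ± 0.21 and surrounds Snord82 (2.65 ± 0.87) and Snora75 (2.23 ± 0.94). Nop58 and Nop56, core proteins of the box C/D particle, surround Snord11, Snord70 and Snord110.

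snoRNAs of 1 host did not always share a level or a pattern across mice. Snhg12, a non-coding gene known for its snoRNAs, read 5.36, and its 4 snoRNA rows read 8.83 (Snora44), 4.06 (Snora61), 3.04 (Snord99) and 2.42 (Snora16a). The non-coding 2410006H16Rik read 10.00 ± 0.28 and surrounds Snord49b (5.53), Snord65 (4.96) and Snord49a (2.30). Snord49b was low in 4 mice, control 885 (3.63) and Zfp148gt/+ mice 891, 892 and 893 (3.06, 4.34 and 3.73), but 2 of these, 891 and 892, had Snord65 values of 6.45 and 6.75, among the 3 highest. Snora73a and Snora73b, both in Snhg3, were more alike, and each was lowest in control 895 and Zfp148gt/+ mouse 783 (1.94 and 1.87 for Snora73a, 2.87 and 2.76 for Snora73b).

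Level and spread differed with the kind of host. The 13 snoRNA rows with a non-coding host had a median signal of 3.67 and a median SD of 0.88, and the 44 with a protein-coding host 2.42 and 0.64. Neither difference was tested, since several rows share a host.

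Hosts of vertebrate snoRNAs often begin their transcript with a C inside a run of pyrimidines, the start that also marks genes of the translation machinery. The starts of 5 non-coding hosts of the rows described here are shown because these transcripts are the source of Snora44, Snord65, Snord123, the Snora73 pair and Snord22. They are RefSeq sequences of GRCm38.p6 on the gene's own strand, 25 bases before and 25 after the annotated start, at chr4:132308653-132308702 (plus strand) for Snhg12, chr11:62602852-62602901 (plus) for 2410006H16Rik, chr15:32244638-32244687 (minus) for Snhg18, chr4:132353662-132353711 (minus) for Snhg3 and chr19:8723462-8723511 (plus) for Snhg1, and capitals mark CTTT or CTCT within 10 bases of the start.
Snhg12: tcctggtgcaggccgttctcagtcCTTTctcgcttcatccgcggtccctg
2410006H16Rik: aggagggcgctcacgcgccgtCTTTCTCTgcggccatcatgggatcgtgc
Snhg18: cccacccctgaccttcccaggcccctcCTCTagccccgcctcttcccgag
Snhg3: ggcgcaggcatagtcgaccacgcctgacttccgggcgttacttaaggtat
Snhg1: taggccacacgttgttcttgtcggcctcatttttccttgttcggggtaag
Both motifs were chosen after the windows were seen and searched on both strands. On the strand of the gene they occurred in 3 of the 5 windows shown, in 13 of 43 windows of the 40 host genes that have one, of 50 (30.2%), and in 16.6% of all 32851 windows of the table. On the reverse strand the shares were 9.30% for the hosts and 17.3% for all windows. In Snhg3 and Snhg1 these letters do not occur in the stretch searched.

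No snoRNA row differed between Zfp148gt/+ mice and controls after adjustment. limma with Benjamini-Hochberg adjustment called 0 of 75 snoRNA rows, and 0 of 33793 rows in all (0% called), and the smallest adjusted p of a snoRNA row was 0.725. Zfp148 itself was among the rows not called, at a difference of −0.88 (limma adjusted p = 0.676, exact permutation p = 0.00216). At an unadjusted p under 0.05, 2 snoRNA rows were higher (2.67%, where 3.88% of all rows were) and 2 were lower (2.67%, where 2.88% of all rows were), which is close to the background in both directions. No snoRNA row separated the genotypes completely, as 0.225% of all rows did with higher and 0.0829% with lower values in Zfp148gt/+ mice. The 95% confidence interval of a snoRNA difference had a median half-width of 0.73 on the log2 scale, against 0.30 for all rows. The precision for these rows was therefore low, and smaller differences were mostly not detectable with 6 mice per group. Larger ones were not called either, such as −1.31 for Snora75 and −1.22 for Snord49b. The interval is not adjusted for the number of rows tested.

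Over the whole list, 52 of 75 rows had the higher mean in Zfp148gt/+ mice (69.3%, all rows 54.8%), with a median difference of 0.16 (all rows 0.020). MicroRNA rows had a like share, 67.7%, with a median of 0.063. The snoRNA median depended on single mice. It was 0.050 without Zfp148gt/+ mouse 897, 0.062 without 892, 0.090 without 911 and 0.083 without control 889, and 0.056 with the shared rows. The numbers for box C/D were 34 of 47 with a median of 0.17, and for box H/ACA 18 of 28 with a median of 0.098. The difference between the class medians, 0.075, changed sign without control 885 (−0.045) or Zfp148gt/+ mouse 783 (−0.0050), among brighter rows (−0.043) and with the shared rows (−0.0019). The interquartile range of the array, 2.69 to 2.93 in Zfp148gt/+ mice and 2.80 to 3.005 in controls, differed between the groups as well. With that range as a covariate the median difference was 0.036. What part the range had in the difference was not tested.

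Snora75, the U23 RNA from an intron of Ncl, had the most negative difference between the genotypes. It read 1.37, 1.77, 1.62, 1.52, 1.85 and 1.33 in Zfp148gt/+ mice 783, 891, 892, 893, 897 and 911 and 1.63, 3.16, 5.23, 3.11, 2.29 and 1.91 in controls 782, 885, 888, 889, 895 and 899. All Zfp148gt/+ values were under the silent reference, 4 of them were below every control, and 3 controls were above the reference. The difference was −1.31 (95% confidence interval −2.34 to −0.29, limma adjusted p = 0.725), with an exact permutation p of 0.00866 (two-sided, 6 against 6 mice, smallest possible 0.00216). As for the rows below, this permutation p is not adjusted for picking the row by its small limma p. Without control 888 it was −0.84. Its host Ncl differed by −0.05.

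U8 (Snord118) read 5.88, 5.98, 4.92, 4.58, 4.60 and 5.98 in the Zfp148gt/+ mice and 5.30, 5.94, 6.28, 6.47, 6.14 and 6.41 in the controls, in the same order. The Zfp148gt/+ mice formed a lower group of 3 (892, 893 and 897) and an upper group of 3 within the range of the controls. Means were 5.32 ± 0.69 and 6.09 ± 0.43 (SD, n = 6 each), a difference of −0.77 (−1.41 to −0.13, limma adjusted p = 0.725, exact permutation p = 0.0563).

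Snora44, the brightest box H/ACA row, read 9.49, 10.00, 8.19, 8.80, 9.44 and 9.07 in Zfp148gt/+ mice and 8.22, 8.67, 9.24, 7.89, 8.30 and 8.63 in controls. Of the Zfp148gt/+ mice, 3 (783, 891 and 897) were above every control and mouse 892 was below 5 of the 6. The difference of 0.67 (0.06 to 1.29, limma adjusted p = 0.725, exact permutation p = 0.0693) was not accompanied by its host Snhg12, at −0.07. Snord110 differed by 0.50 (0.01 to 0.99, exact permutation p = 0.0866), with values under the silent reference in 10 of 12 mice, and by 0.29 with the interquartile range of the array as covariate.

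The other rows of smallest p had unadjusted values above 0.05. They were Snord92, Snord111 and Snora68 with higher means in Zfp148gt/+ mice (0.56, 0.58 and 0.48) and Snora20, Snord8 and Snord49b with lower ones (−0.35, −0.47 and −1.22). With the interquartile range of the array as covariate Snord49b was −0.11, Snord8 −0.26 and Snora68 0.23. Snora20 was −0.17 without control 888 and Snord8 −0.25 without Zfp148gt/+ mouse 891. Snord111 was highest in mouse 891, at 3.898 against at most 2.53 in the other 11 mice, and Zfp148gt/+ mice 891, 897 and 911 were above every control. Without mouse 891 its difference was 0.28. Among textbook members, Snord13 differed by 0.017, Snord22 by 0.26, Snord35a by 0.40, Snord47 by −0.037, Snord61 by −0.12, Snord70 by 0.32, Snord72 by 0.20, and Snora73a and Snora73b by 0.16 and 0.15, all with intervals that include 0. The directions of Snord13, Snord35a, Snord47, Snord61, Snord72, Snora73a and Snora73b each turned with at least 1 mouse left out.

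**Figure D4:**
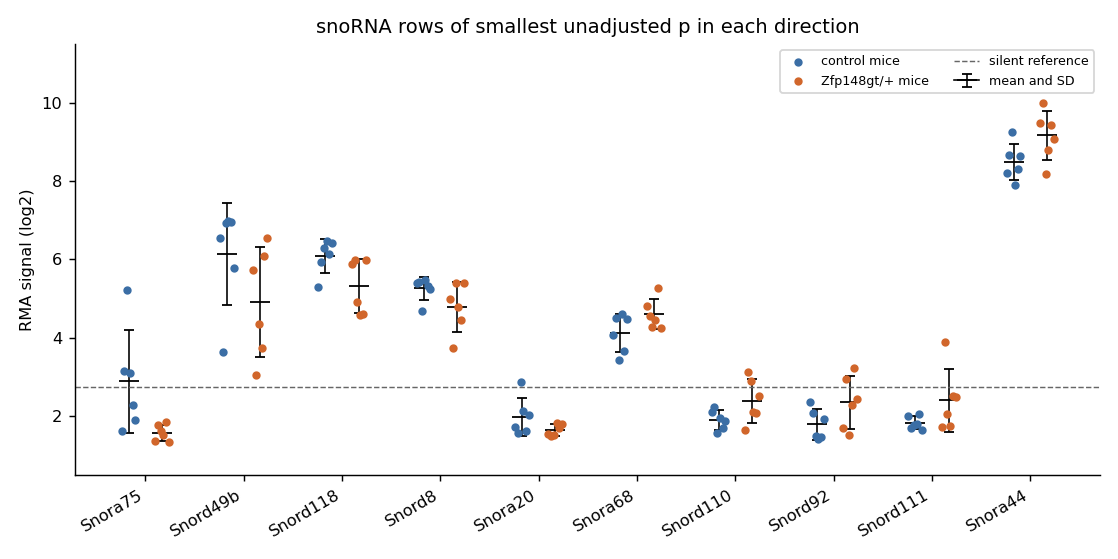
Log2 signal in 6 control and 6 Zfp148gt/+ mice of the 5 snoRNA rows per direction with the smallest unadjusted p, ordered by difference. Points are mice, black bars are means with SD, and the dashed line is the silent reference. The groups overlap in all 10 rows.

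With both classes pooled, the snoRNA rows scattered more widely in each Zfp148gt/+ mouse than in each control. For each mouse the median absolute deviation of its snoRNA rows from their means over the mice of its own genotype was taken. It was 0.36, 0.36, 0.37, 0.37, 0.31 and 0.26 in the controls and 0.54, 0.48, 0.52, 0.41, 0.57 and 0.38 in the Zfp148gt/+ mice, in the order of mice given above, and these ranges did not overlap. The same measure over other named rows was 0.130 to 0.161 in controls and 0.148 to 0.171 in Zfp148gt/+ mice, and it was largest in mice 891, 892 and 893 (0.164 to 0.171). Each of these 3 arrays had the highest value of 10.8% to 12.1% of other named rows and an interquartile range of 2.69 to 2.71, the smallest of the 12. Their part in the wider scatter of snoRNA rows was not tested. The median SD of a snoRNA row was 0.74 among Zfp148gt/+ mice and 0.55 among controls, and was larger among Zfp148gt/+ mice in 52 of 75 rows (69.3%, other named rows 60.0%). By class these were 39 of 47 box C/D rows (83.0%) and 13 of 28 box H/ACA rows (46.4%). The median SD of box C/D rows was 0.78 among Zfp148gt/+ mice and 0.53 among controls. For box H/ACA rows the direction was the opposite, at 0.63 and 0.69. Without mouse 892 the difference between the 2 pooled median SDs was 0.079 instead of 0.19. This comparison was chosen after the values were seen, and no test was made because rows of 1 mouse are not independent.

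**Figure D5:**
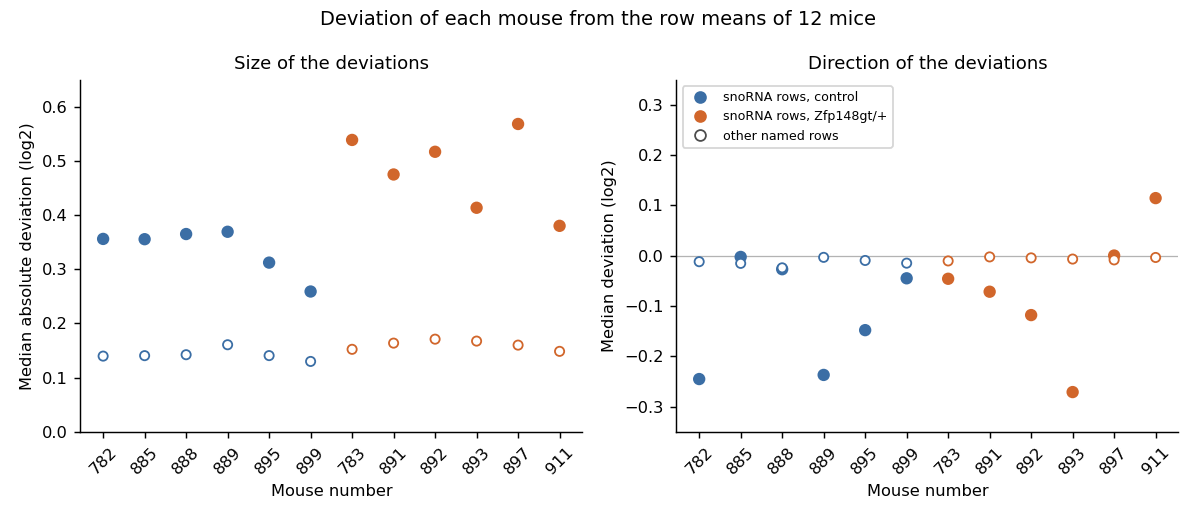
For each mouse, the median absolute deviation from the row means of its own genotype (left) and the median signed deviation from the row means of 12 mice (right), in log2 units. Filled points are snoRNA rows and open points other named rows. The title of the figure applies to the right panel only. Both classes are pooled. By the filled points every Zfp148gt/+ mouse lies above every control on the left, while on the right the groups overlap.

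The snoRNA rows of a mouse were not shifted as a block to one side by genotype. Their median signed deviation, here from the row means over 12 mice, was between −0.25 and −0.0024 in controls and between −0.27 and 0.11 in Zfp148gt/+ mice. The lowest were Zfp148gt/+ mouse 893 (−0.27) and controls 782 (−0.25) and 889 (−0.24), and only mice 897 (0.0003) and 911 (0.11) were above 0. In each mouse 24 to 39 of the 75 rows exceeded their own mean, so that high and low rows occurred side by side in every mouse. Control 888 showed the classes apart, at 0.45 for box H/ACA and −0.11 for box C/D rows.

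Protein components and hosts were measured at higher signals than the snoRNAs and with less spread. Of the box C/D core, 3 of 4 genes had a row of their own and none was called. The Snu13 row read 9.99 and differed by 0.090, and Nop58 by −0.021. All 4 genes of the box H/ACA core were measured and none was called, with Nop10 at −0.28 (−0.56 to 0.01) and Dkc1, the pseudouridine synthase dyskerin, at −0.21. Of the assembly factors, 9 of 10 measured genes had lower means in Zfp148gt/+ mice and none was called (Znhit6 −0.37, Rpap3 −0.20). Of all 33793 rows, 15264 had lower means. With the interquartile range of the array as covariate Nop10 was −0.085, Dkc1 0.16, Znhit6 −0.18 and Rpap3 0.34. Median SDs in these 3 lists were 0.25, 0.28 and 0.35.

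The U3 processome, which assembles on the ribosomal RNA precursor around the U3 snoRNA, had 21 measured genes with 10 higher and 11 lower means and none called. Utp15 alone had an unadjusted p under 0.05, at 5.86 ± 0.41 in Zfp148gt/+ mice and 6.34 ± 0.23 in controls (difference −0.47, −0.86 to −0.09, limma adjusted p = 0.725, exact permutation p = 0.0173). Of 14 measured non-coding hosts 11 had lower means, none was called, and Snhg18 differed by −0.42 (−0.84 to −0.01, exact permutation p = 0.0541), by −0.17 with the same covariate and by −0.27 without Zfp148gt/+ mouse 893. Its snoRNA Snord123 differed by 0.25. Among 13 genes of ribosomal RNA transcription and the nucleolus, 9 had higher means and none was called. Polr1d, a subunit of RNA polymerases I and III, differed by 0.22 (0.01 to 0.43, limma adjusted p = 0.729, exact permutation p = 0.0108). Over all rows 54.8% had higher means, and at an unadjusted limma p under 0.05, 3.88% were higher and 2.88% lower.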

How the data were processed

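Crypt RNA of 12 mice was measured on Affymetrix Gene 2.0 ST arrays. The authors normalized the arrays by RMA in Affymetrix Expression Console and deposited 1 log2 value per transcript cluster and mouse. Base 2 was read from the span of these values (0.846 to 13.24) and is nowhere written out, and software versions and build are not given in the sources that were used. Arrays carry no read depth, so precision rests on 6 mice per genotype.

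Genotype and mouse number came from the sample labels and gene symbols from the platform annotation, in which 23521 rows have 1 symbol, 1820 several and 8452 no listed gene. All 75 gene IDs of the snoRNA rows were found in the RefSeq table of GRCm38.p6. It was read without strand, so a host is a gene, other than a microRNA gene, whose span contains the snoRNA gene. The row of highest mean with the host's gene ID stood for it, wherever that row lies.

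Differences, Zfp148gt/+ minus control, were fitted on all rows in limma 3.58.1 under R 4.3.3, the tool of the study's methods, with an unpaired 2-group design, eBayes moderation and Benjamini-Hochberg adjustment over all rows at a threshold of 0.05. Single rows were also compared by exact permutation over the 924 assignments of 12 mice into 6 and 6, two-sided. The permutation p-values are not adjusted for the number of rows or for picking rows by limma p in the same values. Spread is the SD within genotype, pooled over both. In simulated data of 33793 rows the fit recovered 85.0% of 100 rows changed by 1 log2 unit and 98.0% of 100 changed by 2, with 9 false calls. The changed rows were drawn from all rows, whose median SD was 0.24, against 0.66 for snoRNA rows. The simulated noise was normal, without single mice set far from the rest. These shares therefore do not describe recovery among snoRNA rows. Other steps used Python 3.11.15, pandas 2.3.3 and matplotlib 3.10.9.

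Rows and lists were chosen with earlier results of these data known. Rows are named as the 5 brightest of each class, the 5 of largest spread, the 5 per direction of smallest p, textbook members, the lowest and highest of each class and, in each list, genes with an unadjusted p under 0.05 or else the 2 of smallest p. Hosts and any row outside this rule were picked with their values in view. As alternatives served array weights, a trended and robust eBayes, centring each array, repeated quantile normalization, the interquartile range of the array as covariate, brighter rows only, the mean of a gene's rows, shared or unnamed rows included and each mouse left out in turn.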

Additional observations from a re-analysis of the deposited data

Results flagged for a closer look

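Every snoRNA row was looked at for 1 mouse far from the other 5 of its genotype, where the gap to the nearest mouse, as a share of the group's range, passed Dixon's 95% critical value. Chance gives about 1 in 20 such groups. It did so in 24 of 150 groups of snoRNA rows (16%), 7.50% of those of other named rows and 11.3% of those of microRNA rows. The identical Snora19 rows are counted singly here, and counted once they leave 23 of 148 groups (15.5%). In 21 of the 24 the mouse apart was the highest. Mouse 892 was that mouse 5 times and mouse 888 in 4 distinct rows.

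Mouse 892 was the high Zfp148gt/+ mouse for Snord42b (gap 0.844 of the range, at 6.74 with others 1.67 to 2.46), Snord88a (0.790, at 6.16 with others 1.93 to 2.82), Snora2b (0.773, at 6.29 with others 1.57 to 2.64), Snora69 (0.756, at 3.92) and Snord91a (0.747, at 5.13), and the low one for Snord16a (0.773, at 4.03 with others 5.54 to 5.98). Other high Zfp148gt/+ mice were 783 for Snord73b (0.926, at 4.87) and Snord19 (0.814, at 2.77), 893 for Snora34 (0.838, at 5.29) and Snord72 (0.699, at 3.18), 911 for Snord66 (0.839, at 4.07), 897 for Snord85 (0.672, at 3.24) and 891 for Snord111 (0.631, at 3.898).

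Among controls, mouse 888 was high for Snora41 (0.878, at 4.45 with others 2.42 to 2.66), both identical Snora19 rows (0.677, at 2.96), Snora62 (0.638, at 4.29) and Snord66 (0.632, at 3.55), and low for Snord8 (0.694, at 4.69 with others 5.24 to 5.48). Mouse 885 was high for Snord73b (0.848, at 4.61), Snord58b (0.711, at 2.82) and Snord11 (0.703, at 4.95), and low for Snord49b (0.644, at 3.63 with others 5.79 to 6.98). Mouse 899 was high for Snord49a (0.775, at 3.10). The median deviation of box H/ACA rows was lowest in Zfp148gt/+ mouse 893 (0.659, at −0.24 with others −0.098 to −0.025). All are given as values.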

How the results depend on the processing

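No snoRNA row was called under any alternative or with any mouse left out, and the smallest adjusted p of these rows lay between 0.529 and 0.947 by limma. The counts at an unadjusted p under 0.05, 2 higher and 2 lower, rested on few rows. Higher rows numbered 1 with arrays centred, 1 with array weights, 4 with the interquartile range as covariate and 1 among brighter rows, where also 1 was lower. Without Zfp148gt/+ mice 891, 892 and 893 together, chosen after seeing the data, 7 were higher and 1 lower. With 1 mouse left out the higher rows ranged from 0 (without control 895 or Zfp148gt/+ mouse 891) to 5 (without control 885) and the lower rows from 1 (without Zfp148gt/+ mouse 893 or 897) to 4 (without control 885 or Zfp148gt/+ mouse 891 or 911). The median difference, 0.16, was 0.036 with the interquartile range as covariate and ranged from 0.050 (without Zfp148gt/+ mouse 897) to 0.17 with 1 mouse left out. Centring moved the median of all rows from 0.020 to −0.024. The level of snoRNA rows minus other rows, −0.22, was −0.60 among brighter rows and 0.16 against all other rows with unnamed ones included. The excess of spread, 0.41, was 0.55 among brighter rows and 0.34 with the shared rows. Box C/D minus H/ACA was −1.28 in level with the shared rows and −1.15 with identical rows counted once, a choice made after seeing the data, and in spread ranged from −0.13 (without Zfp148gt/+ mouse 892) to 0.073 (without control 888). With both classes pooled, the median SD in Zfp148gt/+ minus control mice ranged from 0.079 (without mouse 892) to 0.24 (without control 888). Of single rows, these turned direction. With the interquartile range as covariate Snord47 was 0.46, Snord72 −0.17, Snora73b −0.074, Snora73a −0.0018, Nop58 0.10, Dkc1 0.16 and Rpap3 0.34. Snora73b was −0.048 with array weights, Snord13 −0.026 with arrays centred and Nop58 0.027 with quantile normalization. With 1 mouse left out the ranges were −0.23 to 0.28 for Snord47, −0.080 to 0.32 for Snord72, −0.11 to 0.47 for Snora73b, −0.10 to 0.46 for Snora73a, −0.013 to 0.68 for Snord35a, −0.15 to 0.19 for Snord13, −0.51 to 0.38 for Snord61 and −0.10 to 0.062 for Nop58. Others kept their direction but moved by over 1.5 times. With the covariate Snord49b was −0.11, Snord22 0.91, Snord35a 0.63, Snord61 −0.33, Snord8 −0.26, Snora68 0.23, Snord110 0.29, Snord13 0.036, Snu13 0.25, Nop10 −0.085, Snhg18 −0.17 and Znhit6 −0.18. With 1 mouse left out Snora75 reached −0.84 and Snora20 −0.17 (control 888), Dkc1 −0.081 (control 782), Snord8 −0.25 and Snord111 0.28 (mouse 891), Snord70 0.16 and Snhg18 −0.27 (mouse 893), while Snord22 ranged from 0.048 to 0.42, Rpap3 from −0.35 to −0.12 and Snu13 from 0.0053 to 0.17. The cause of these changes was not tested. The brighter rows are fewer by construction. No paired analysis was possible because the sources do not say which mice are littermates. Signal near the silent reference limits what the array can show for most snoRNA rows.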
